A study of Homo sapiens with 12 samples.

Results

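The 47 genes described here encode the machinery of mitosis and its control: the cyclins and CDK1 with their regulators, the mitotic kinases, the spindle checkpoint, the chromosomal passenger complex, the proteins that trigger anaphase, the kinetochore, the kinesin motors, the spindle and its midzone, cytokinesis factors and chromosome structure proteins. They were picked by gene name from a list of mitosis and spindle genes, with no threshold on a measured value, and all 47 were found among the 25647 genes present in every table. Transcript levels were measured by RNA-seq of poly(A) RNA in 12 libraries. They come from 3 established human carcinoma cell lines, MHCC97H (hepatocellular carcinoma), A549 (lung adenocarcinoma) and HCT116 (colorectal carcinoma). Cells of each line were treated with 1 µM TSA (trichostatin A, an inhibitor of histone deacetylases), with 50 µM GSK126 (which inhibits EZH2, the methyltransferase of Polycomb) or with 100 µM S2101 (which inhibits LSD1, the lysine demethylase KDM1A), or were left untreated. There was 1 library for each line and condition, so the 3 lines are the replicates of a condition. Each p-value below, from fits with a line term unless stated, rests on how unevenly the lines responded, with 1 spread estimate for all conditions fitted. HCT116 cells grew in RPMI 1640 and the other lines in DMEM, so line and medium cannot be told apart for HCT116. For treatment times and vehicle, nothing is given in the sources used here.

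Cells enter mitosis when cyclin B with CDK1 is switched on by CDC25 phosphatases against the inhibitory kinase WEE1. Kinetochores then attach chromosomes to a spindle built by motors and microtubule-bundling proteins, and the spindle checkpoint holds back the anaphase-promoting complex (APC/C) until every chromosome is attached. APC/C with CDC20 marks securin and cyclin B for destruction, separase cuts cohesin, and the cell divides. Most of these genes are transcribed late in the cell cycle, from promoters bound by NF-Y at CCAAT boxes and by the MuvB complex at the cell cycle genes homology region (CHR), and their transcripts are low in cells that do not divide. With MuvB, B-MYB and FOXM1 activate them in dividing cells, and the DREAM complex represses them in resting cells.

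The promoters are shown because CCAAT and the CHR letters are elements known from promoters of this kind. The promoter table used here, from RefSeq (GRCh38.p14), matched 39 of the 47 genes, and the promoters of FOXM1, BIRC5, WEE1, TTK, UBE2C, TPX2, BUB3 and AURKA were not analysed here. The 250 bases before the listed start were searched on both strands for CCAAT and for the CHR letters TTTGAA and TTTAAA. Other forms of the CHR were not searched for, so a promoter without these letters may still hold one. CHR matches were counted whether or not they shared bases with another match. Below are 6 of them, 5′ to 3′ on the strand of the gene, with these letters and their reverse complements in capitals. CCNB2, CCNB1 and PLK1 carry CHR letters close to the start and CDK1 farther away. Of the letters searched, CCNA2 has CCAAT alone and CDC25B has none. For genes with several starts in the table (AURKB, CDC25B, CDC25C, CDK1, ECT2 and PTTG1), the one listed first was searched.
CCNB2 (cyclin B2), chr15:59104896-59105145 on the plus strand: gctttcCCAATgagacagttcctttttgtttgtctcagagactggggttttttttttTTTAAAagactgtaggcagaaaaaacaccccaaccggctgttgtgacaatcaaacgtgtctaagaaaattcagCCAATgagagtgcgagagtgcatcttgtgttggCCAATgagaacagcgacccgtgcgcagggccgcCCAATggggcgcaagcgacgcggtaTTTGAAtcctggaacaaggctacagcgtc
CCNB1 (cyclin B1), chr5:69166900-69167149 on the plus strand: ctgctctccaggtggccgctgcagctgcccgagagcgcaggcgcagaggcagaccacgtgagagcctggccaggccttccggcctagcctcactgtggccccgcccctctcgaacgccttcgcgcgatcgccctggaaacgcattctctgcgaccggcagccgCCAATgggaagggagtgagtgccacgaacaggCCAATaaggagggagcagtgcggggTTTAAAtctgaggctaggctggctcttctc
PLK1 (Polo-like kinase), chr16:23678639-23678888 on the plus strand: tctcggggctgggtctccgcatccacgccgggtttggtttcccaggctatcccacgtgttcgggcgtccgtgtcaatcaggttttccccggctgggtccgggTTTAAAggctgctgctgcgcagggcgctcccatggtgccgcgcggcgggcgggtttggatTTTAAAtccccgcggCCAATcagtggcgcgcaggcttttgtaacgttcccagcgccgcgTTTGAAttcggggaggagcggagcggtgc
CDK1 (the kinase of mitotic entry), chr10:60778081-60778330 on the plus strand: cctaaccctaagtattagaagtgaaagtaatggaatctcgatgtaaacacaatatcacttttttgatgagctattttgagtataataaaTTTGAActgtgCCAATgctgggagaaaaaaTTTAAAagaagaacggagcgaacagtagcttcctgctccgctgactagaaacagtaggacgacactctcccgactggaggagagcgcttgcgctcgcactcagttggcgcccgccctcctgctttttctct
CCNA2 (cyclin A), chr4:121823884-121824133 on the minus strand: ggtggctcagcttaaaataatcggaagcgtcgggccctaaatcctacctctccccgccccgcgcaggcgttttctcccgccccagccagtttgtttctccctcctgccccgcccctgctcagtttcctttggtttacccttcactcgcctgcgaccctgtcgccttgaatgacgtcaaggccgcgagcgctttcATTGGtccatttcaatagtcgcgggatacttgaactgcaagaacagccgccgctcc
CDC25B (an activating phosphatase), chr20:3786701-3786950 on the plus strand: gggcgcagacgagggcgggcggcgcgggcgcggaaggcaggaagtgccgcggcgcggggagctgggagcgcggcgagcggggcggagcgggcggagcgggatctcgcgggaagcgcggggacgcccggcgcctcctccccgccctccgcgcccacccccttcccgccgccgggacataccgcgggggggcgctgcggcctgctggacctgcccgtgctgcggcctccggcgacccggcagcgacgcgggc

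CCAAT stood in 31 of the 39 promoters (79.5%), against 33.0% of all 27305 promoters in the table and 34.5% of the 15842 promoters of protein-coding genes. It occurred at 2 or more places in 20 of them (51.3%), against 10.03% of all promoters. TTTGAA was found in 22 (56.4%) against 13.6% of all promoters, and TTTAAA in 12 (30.8%) against 11.4%. Either CHR sequence lay within the last 100 bases before the start in 22 of the 39 (56.4%), against 8.33% of all promoters. Both a CCAAT and a CHR sequence were present in 25 (64.1%), against 7.85%. Counted from the start, the nearest CHR match began at base -29 in CCNB2 and in PLK1, at -30 in CCNB1 and at -131 in CDK1. A match is a description of the letters and not of a bound site. CDC25B, CDC25C, KIF2C, NDC80 and NUF2 held none of the 3 motifs in this window, for CDC25B and CDC25C at 1 of 4 starts each.

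The libraries held 14468304 to 19061367 gene counts each, and no member had fewer than 28 reads in any library. No pair of libraries of a line agreed within sampling noise, since the closest pair, MHCC97H under S2101 and under GSK126, had a chi-square of 10.985 per gene. The lines were checked against marker genes of their tissues. Of 7 liver markers, 5 reached 1 CPM (read counts scaled to library size with TMM factors) in a library of MHCC97H. In its untreated library HNF4A was at 58.6, APOB at 15.3, SERPINA1 at 3.37 and AFP at 2.74 CPM. ALB (0.562 CPM), APOA1 (0.421 CPM) and TTR (0 CPM) were under 1 CPM there, and ALB passed it only under GSK126 (1.13 CPM). The 6 colon markers summed to 12.03 to 14.2 CPM in the HCT116 libraries and to 108 to 199 CPM in those of MHCC97H, so as a list they were highest in MHCC97H. Untreated CDH17 (134 CPM), VIL1 (26.97 CPM) and LGR5 (0.913 CPM) were highest there. CDX2 (12.07 CPM) and GPA33 (0.3515 CPM) were highest in HCT116, and CDX1 had no read in any library. Lung epithelial markers were at or near 0 in A549, where NKX2-1 had no read in the untreated library and SFTPB was at 1.86 CPM. The 6 lung markers summed to 2.33 to 4.01 CPM in the A549 libraries and to 4.175 to 6.01 CPM in those of HCT116. These markers thus did not set A549 apart from the other lines.

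In the untreated libraries the members spanned more than an order of magnitude per transcript length. By the authors' RPKM (read counts scaled by transcript length and library depth), TOP2A stood first at 121 ± 82.4, followed by CCNB1 at 105 ± 31.0, TPX2 at 104 ± 3.397, UBE2C at 103 ± 13.4 and CDC20 at 100.4 ± 54.3 (SD, n = 3 lines). These 5 did not differ beyond their spread. The lowest were CDC25C at 8.23 ± 3.98, CENPE at 11.1 ± 1.41 and ESPL1 at 12.1 ± 6.30 RPKM, which overlapped one another as well. Together the 47 genes took 0.191, 0.458 and 0.430% of all counts under TSA in MHCC97H, A549 and HCT116, 0.514, 0.261 and 0.445% under GSK126, 0.494, 0.476 and 0.658% under S2101, and 0.660, 0.862 and 0.811% in untreated cells. Every treated library thus gave them a smaller share than the untreated library of its line. Fewer dividing cells and less RNA per cell cannot be told apart in these bulk samples.

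Most of the group was lower under TSA. In a fit of condition and line over all 12 libraries (edgeR's quasi-likelihood test, called at a Benjamini-Hochberg adjusted p under 0.05 over 16929 genes), 35 of the 47 genes fell against untreated cells and 0 rose. At an unadjusted p under 0.05 and by DESeq2, 0 were higher too. Of all genes tested, 17.2% were called lower and 17.4% higher. The median fitted log2 change was -1.41 over the 47 genes and 0.08 over all genes. All 47 were lower than untreated in each of the 3 lines, as were 26.5% of all genes tested. The count depended on the lines and on the line term: 0 members passed without the A549 libraries, 13 without MHCC97H, 20 without HCT116, and 1 (SPC25) when line was left out of the fit. In those fits 1 gene of 16202, 548 of 16347, 3179 of 16248 and 146 of 16394 were called lower over all genes, and the members' median log2 change lay between -1.47 and -1.18. Without A549 the lowest adjusted p of a member was 0.0619.

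**Figure D1:**
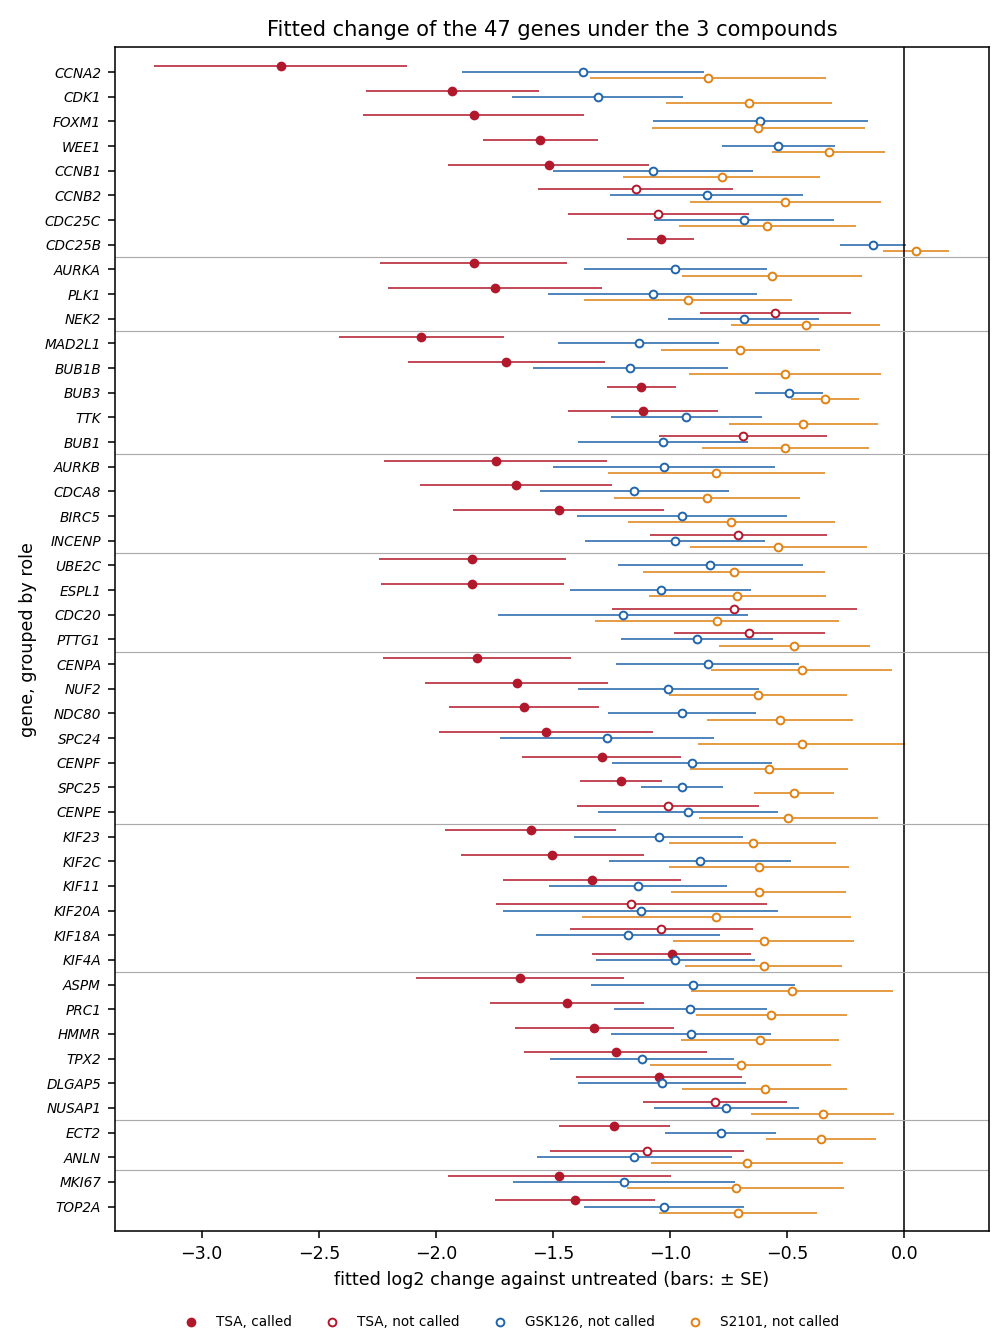
Fitted log2 change of each of the 47 genes (horizontal axis) against untreated cells under TSA (red), GSK126 (blue) and S2101 (orange), with bars of 1 SE from the edgeR fit over 12 libraries. Filled points passed the adjusted p of 0.05: 35 genes under TSA and 0 under GSK126 and S2101. The genes are grouped by role, with lines between groups.

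Among the genes of mitotic entry, 6 of 8 fell under TSA. Beside this and each role count below, the share of all genes called lower was 17.2%. Without the A549 libraries 0 members were called in any role. CCNA2, the cyclin of S phase and early mitosis, showed the largest decrease of all 47: in the order MHCC97H, A549, HCT116, which is kept throughout, it had 4.97, 20.8 and 29.1 CPM under TSA, against 98.8, 111 and 117.5 CPM in untreated cells. The groups do not overlap, and the fitted change was -2.66 ± 0.54 on the log2 scale (SE; edgeR adjusted p = 0.00711), or 6.33-fold lower. CDK1 had 15.8, 39.6 and 48.5 CPM under TSA, against 106, 145 and 120.0 CPM untreated, a change of -1.93 ± 0.37 (adjusted p = 0.00571). CCNB1, the cyclin that activates CDK1 at mitosis, had 29.8, 135 and 98.4 CPM against 174, 309 and 233 CPM (-1.52 ± 0.43, adjusted p = 0.0248). All 3 of these genes were lowest in the MHCC97H library with TSA. FOXM1, a transcription factor of the late cell cycle genes, had 30.2, 47.7 and 60.9 CPM under TSA, against 237, 185 and 131 CPM in untreated cells (-1.84 ± 0.47, adjusted p = 0.0173).

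Both brakes and accelerators of CDK1 were in that group. WEE1, the kinase that inhibits CDK1, had 14.8, 11.03 and 33.2 CPM under TSA, against 44.0, 44.4 and 70.6 CPM untreated, a change of -1.55 ± 0.25 (edgeR adjusted p = 0.00294). CDC25B, the phosphatase that starts CDK1 activation, had 144, 181 and 129.9 CPM, against 334, 329 and 270.3 CPM (-1.04 ± 0.14, adjusted p = 0.00208). For both genes every TSA library lay below every untreated library. CCNB2 (cyclin B2; -1.15 ± 0.42, adjusted p = 0.0578) and CDC25C (a further activating phosphatase; -1.05 ± 0.39, adjusted p = 0.0616) did not pass. CDKN1A, the CDK inhibitor p21, went the other way: it averaged 458 ± 199 CPM under TSA and 72.8 ± 62.0 CPM in untreated cells (SD, n = 3 each), a rise of 2.90 on the log2 scale (adjusted p = 0.0027). By line it had 649, 252 and 472 CPM under TSA, against 30.3, 44.15 and 144 CPM untreated. Its level was above untreated in each line under the other compounds too, but it was called under neither by edgeR over 12 libraries. It had 78.4, 94.8 and 207 CPM under GSK126 and 111, 72.65 and 174 CPM under S2101. Of all genes tested, 24.3% under GSK126 and 20.3% under S2101 were lower than untreated in none of the 3 lines.

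Of the 3 mitotic kinases, AURKA and PLK1 fell under TSA. AURKA, the kinase of centrosomes and spindle poles, had 24.3, 38.5 and 45.2 CPM under TSA, against 150.4, 172 and 88.6 CPM untreated (-1.84 ± 0.40, edgeR adjusted p = 0.0091). PLK1, which acts from mitotic entry to cytokinesis, had 23.2, 51.2 and 89.9 CPM, against 189, 182 and 164 CPM (-1.75 ± 0.46, adjusted p = 0.0188). The treated libraries of both genes lay below all untreated ones. NEK2, a kinase of centrosome separation, was near its untreated level in A549, with 68.1 CPM under TSA against 68.7 CPM untreated, and its fitted change was the smallest of the 47 (-0.55 ± 0.32, adjusted p = 0.206).

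In the spindle checkpoint, 4 of 5 genes fell. MAD2L1, which encodes the MAD2 inhibitor of CDC20, had 13.7, 24.9 and 46.0 CPM under TSA, against 99.0, 90.4 and 149 CPM untreated, a change of -2.06 ± 0.35 (edgeR adjusted p = 0.00396). BUB3, a WD-repeat partner of BUB1 and BUBR1, had 56.1, 93.02 and 146 CPM, against 137, 225 and 255 CPM. HCT116 with TSA thus overlapped untreated MHCC97H, but within lines the log2 ratios were -1.27, -1.26 and -0.81. The fitted change was -1.12 ± 0.15, with the lowest adjusted p of the 47 genes (0.00184). BUB1B (BUBR1, a subunit of the checkpoint complex) changed by -1.70 ± 0.42 and TTK (the MPS1 kinase at the top of the checkpoint) by -1.12 ± 0.32, while the kinase BUB1 did not pass (-0.69 ± 0.36, adjusted p = 0.159).

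The chromosomal passenger complex corrects faulty attachments and guides cytokinesis. AURKB, its kinase, fell to 10.7, 46.6 and 30.8 CPM under TSA, against 60.7, 125 and 97.4 CPM in untreated cells (-1.74 ± 0.48, edgeR adjusted p = 0.0219). BIRC5 (survivin) changed by -1.48 ± 0.45 and CDCA8 (borealin) by -1.66 ± 0.41, both called. INCENP, the scaffold that binds AURKB, did not pass (-0.71 ± 0.38, adjusted p = 0.17). So 3 of 4 subunits were called lower.

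Of the 4 anaphase genes, UBE2C and ESPL1 fell. UBE2C, the E2 enzyme of APC/C, had 16.2, 27.2 and 40.3 CPM under TSA, against 92.99, 98.2 and 102 CPM untreated (-1.84 ± 0.40, edgeR adjusted p = 0.00905). ESPL1, separase, had 8.48, 23.4 and 40.8 CPM, against 53.0, 72.9 and 122 CPM (-1.84 ± 0.39, adjusted p = 0.00846). CDC20, the mitotic activator of APC/C, overlapped between the groups, with 24.7, 147 and 171 CPM under TSA against 92.3, 177 and 254 CPM untreated, and did not pass (-0.73 ± 0.52, adjusted p = 0.301). PTTG1, securin, did not pass either (-0.66 ± 0.32, adjusted p = 0.135). Its near copies PTTG2 and PTTG3P held 1 to 5 reads over the 4 libraries of a line.

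Kinetochore and centromere genes fell in 6 of 7 cases. CENPA, the centromeric histone H3 variant, had 3.98, 14.6 and 8.36 CPM under TSA, against 29.6, 47.3 and 20.04 CPM untreated, a change of -1.82 ± 0.40 (edgeR adjusted p = 0.00977). The 4 subunits of the NDC80 complex, which holds microtubules at the kinetochore, were all called lower: NDC80 by -1.62 ± 0.32, NUF2 by -1.66 ± 0.39, SPC24 by -1.53 ± 0.46 and SPC25 by -1.21 ± 0.17. SPC25 was the most even of them, at 20.4, 17.3 and 21.95 CPM under TSA against 46.8, 42.6 and 48.0 CPM untreated. CENPF, a large outer kinetochore protein, was called at -1.29 ± 0.34, and CENPE, a kinetochore motor, was not (-1.01 ± 0.39, adjusted p = 0.0705).

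Among the kinesin motors, 4 of 6 fell: KIF23 of the central spindle (-1.60 ± 0.36), the microtubule depolymerase KIF2C (-1.50 ± 0.39), KIF11, which pushes the poles apart (-1.33 ± 0.38), and the chromokinesin KIF4A (-0.99 ± 0.34, edgeR adjusted p = 0.0475). KIF23 had 31.5, 90.8 and 57.6 CPM under TSA, against 163, 253 and 124 CPM untreated. KIF4A is nearly identical to the retrogene KIF4B, to which 16.4, 7.11 and 4.34 CPM were counted in the untreated libraries of MHCC97H, A549 and HCT116, so reads may be split between them. KIF20A, a motor of cytokinesis (-1.17 ± 0.58, adjusted p = 0.143), and KIF18A, which limits chromosome oscillation (-1.04 ± 0.39, adjusted p = 0.0655), did not pass.

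Of the genes of spindle assembly and the midzone, 5 of 6 fell: ASPM of the spindle pole (-1.64 ± 0.44), the midzone bundler PRC1 (-1.44 ± 0.33), the microtubule-binding HMMR (-1.32 ± 0.34), TPX2, the activator of AURKA (-1.23 ± 0.39), and the spindle protein DLGAP5 (-1.05 ± 0.35, edgeR adjusted p = 0.0466). ASPM had 38.9, 98.3 and 68.1 CPM under TSA, against 309.6, 252 and 142 CPM untreated. NUSAP1, a microtubule-bundling protein, was not called (-0.81 ± 0.31, adjusted p = 0.0688). In cytokinesis, the exchange factor ECT2 fell (-1.24 ± 0.24, adjusted p = 0.0058), and the ring scaffold ANLN did not pass (-1.10 ± 0.41, adjusted p = 0.0664).

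Both chromosome structure genes fell. MKI67, the Ki-67 surfactant of mitotic chromosomes and a marker of proliferation, had 107, 394 and 655 CPM under TSA, against 706, 1008 and 1172 CPM untreated (-1.47 ± 0.47, edgeR adjusted p = 0.0394). TOP2A, the topoisomerase that untangles sister chromatids, had 175.5, 509.5 and 145 CPM, against 598, 1331 and 313 CPM (-1.41 ± 0.34, adjusted p = 0.014). TOP2A libraries overlapped across lines, since A549 was high in both conditions, while each line was lower under TSA.

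**Figure D2:**
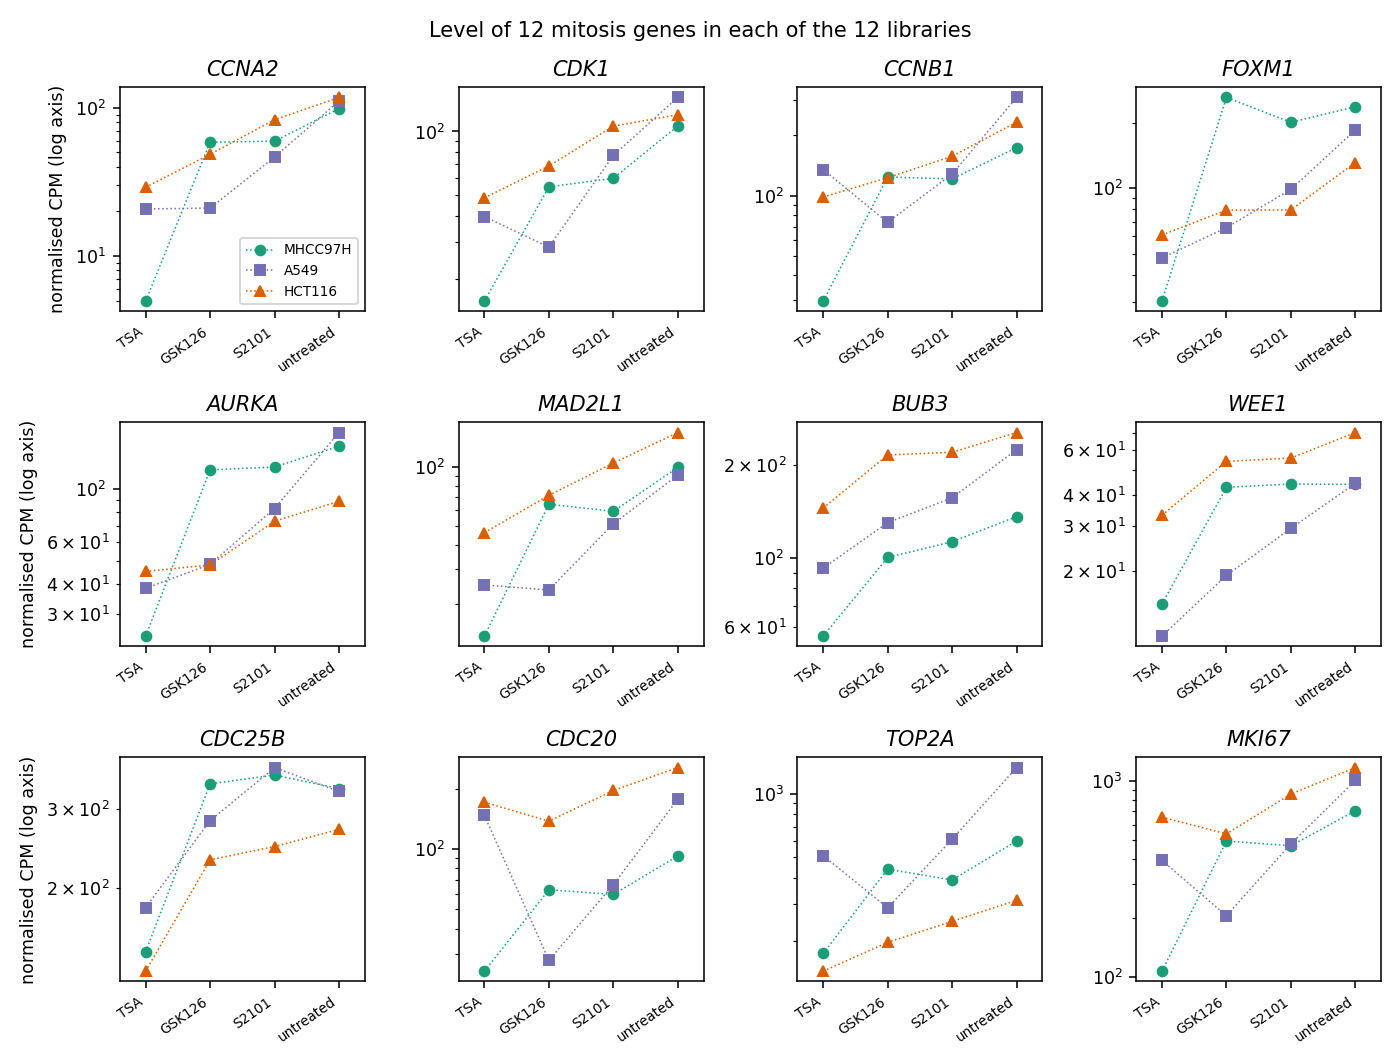
Level of 12 of the genes in each library, in TMM-scaled CPM on log axes, by condition (horizontal axis) and line (circles MHCC97H, squares A549, triangles HCT116; dotted lines join the libraries of a line). CCNA2 is lowest in MHCC97H under TSA (4.97 CPM), CDC20 stays at 147 CPM in A549 under TSA but is at 27.9 CPM there under GSK126, and CDC25B is at 129.9 to 181 CPM under TSA and at 231 CPM or more in every other library.

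Under GSK126, 0 of the 47 genes and 0% of all genes passed edgeR's adjusted p of 0.05 in the fit over all 12 libraries, although the fitted changes were all negative, with a median of -0.98 against 0.01 over all genes. The median was -0.62 without the A549 library treated with GSK126 and -0.57 without all A549 libraries. At an unadjusted p under 0.05, 34 members were lower, and 8.91% of all genes were. DESeq2 called 4 members lower (BUB3, CDK1, MAD2L1 and SPC25), against 3.77% of all genes. Of the 47 genes, 44 were lower than untreated in all 3 lines, as were 22.9% of all genes. The other 3 were CDC25B, CDC25C and FOXM1. The fit shares 1 estimate of spread over all conditions. When the 3 TSA libraries were left out of it, an alternative chosen after the data were seen, 40 of 47 members fell, against 6.63% of all genes. With further libraries left out of that fit, 0 members passed without the A549 library treated with GSK126 (9 of 16105 genes called lower, members' median -0.70), 0 without all A549 libraries (0 of 15620 genes, median -0.62), 0 without HCT116 (0 of 15447 genes, median -1.08) and 43 without MHCC97H (967 of 15704 genes, median -1.38).

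The largest fitted changes under GSK126 were those of CCNA2, CDK1 and SPC24. CCNA2 had 58.6, 21.1 and 48.6 CPM under GSK126 in MHCC97H, A549 and HCT116, against 98.8, 111 and 117.5 CPM in untreated cells (-1.37 ± 0.52, edgeR adjusted p = 0.223 over 12 libraries). CDK1 had 54.7, 28.4 and 68.7 CPM, against 106, 145 and 120.0 CPM (-1.31 ± 0.36, adjusted p = 0.128). For both, all libraries with GSK126 lay below the untreated ones, and A549 was the lowest. SPC24, the kinetochore subunit, had 6.92, 3.17 and 5.03 CPM, against 8.99, 14.7 and 14.9 CPM (-1.27 ± 0.46, adjusted p = 0.205).

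At the other end stood CDC25B, with 342, 282.7 and 231 CPM under GSK126 in MHCC97H, A549 and HCT116, against 334, 329 and 270.3 CPM in untreated cells (-0.13 ± 0.14, edgeR adjusted p = 0.734). BUB3 (-0.49 ± 0.15, adjusted p = 0.142) and WEE1 (-0.54 ± 0.24, adjusted p = 0.307) were next. SPC25 had the lowest adjusted p (0.0903), at 30.5, 19.4 and 21.9 CPM under GSK126 against 46.8, 42.6 and 48.0 CPM untreated. AURKA (-0.98), AURKB (-1.03), PLK1 (-1.07), CCNB1 (-1.07) and TOP2A (-1.03) had fitted log2 changes near the group's median. MKI67 (-1.20) lay further below it. None of these genes passed over 12 libraries.

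Under S2101, as under GSK126, 0 members and 0% of all genes passed edgeR's adjusted p, and the lowest adjusted p of a member was 0.939. The median log2 change was -0.60 against 0.0039 over all genes, and -0.37 without the A549 libraries. Without the A549 library treated with GSK126 it was -0.56, and the median under GSK126 in that fit was -0.62. At an unadjusted p under 0.05, 2 members (BUB3 and SPC25) were lower, against 2.43% of all genes. DESeq2 called 0 members, against 0.0177% of all genes. The edgeR p-values over 12 libraries use a spread shared with TSA. Without the 3 TSA libraries, 0 members and 0 of 16201 genes passed, with a members' median of -0.60. Most members were then lower at an unadjusted p under 0.05, and the share of all genes is not given here. PLK1 had the lowest edgeR adjusted p of a member in that fit, 0.225 (-0.91 ± 0.23, unadjusted p = 0.0029). Still, 44 of the 47 genes were lower than untreated in all 3 lines, as were 21% of all genes, the exceptions being CDC25B, ECT2 and WEE1.

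The largest fitted changes under S2101 were those of PLK1, CDCA8 and CCNA2. PLK1 had 116, 73.4 and 101 CPM under S2101 in MHCC97H, A549 and HCT116, against 189, 182 and 164 CPM untreated (-0.92 ± 0.44). CDCA8 had 37.2, 27.6 and 66.1 CPM, against 66.7, 64.4 and 89.1 CPM (-0.84 ± 0.40). CCNA2 had 59.6, 46.5 and 83.1 CPM, against 98.8, 111 and 117.5 CPM (-0.84 ± 0.51). These genes were lower in each line, and the edgeR adjusted p of each was 0.939. CDC25B was the only member with a positive fitted change (0.05 ± 0.14), at 358, 372 and 247 CPM against 334, 329 and 270.3 CPM.

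**Figure D3:**
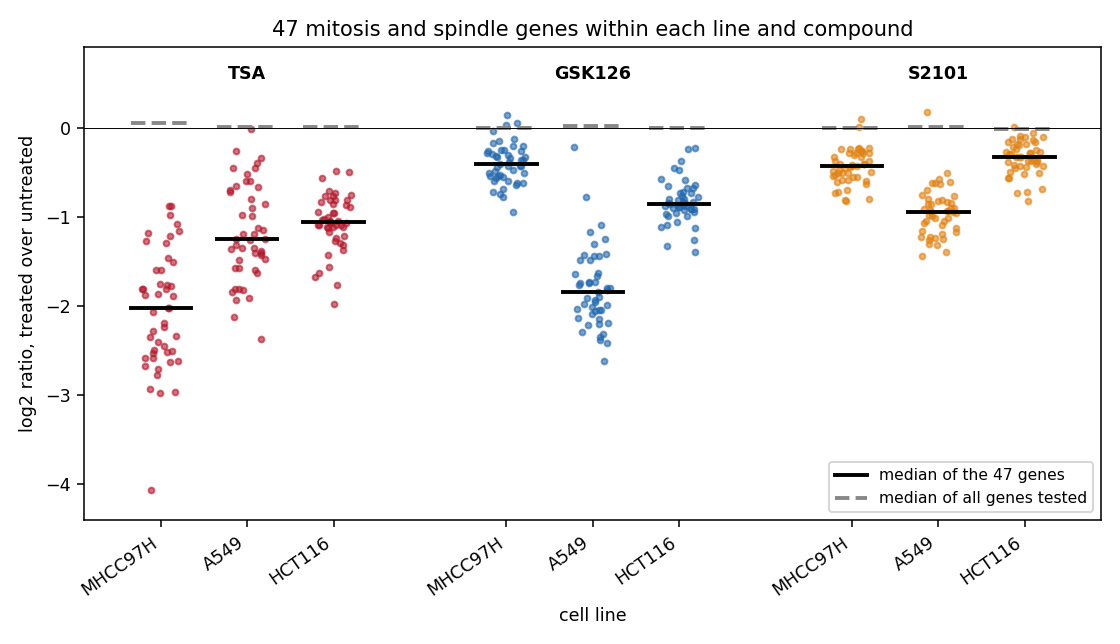
Log2 ratio of each of the 47 genes, treated over untreated library of the same line (vertical axis; CPM with a pseudocount of 1), by compound and line. Each point is a gene, black bars are the median of the 47 genes and grey dashes the median of all 16929 genes tested. The lowest median under TSA is that of MHCC97H (-2.03) and the lowest under GSK126 and S2101 that of A549 (-1.85 and -0.94).

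The lines ranked differently under the 3 compounds. There was 1 library for each line and condition, so the ratios within a line have no replicate and no test. Under TSA the median log2 ratio of the 47 genes was -2.03 for MHCC97H, -1.25 for A549 and -1.06 for HCT116. Under GSK126 it was -0.41, -1.85 and -0.86, and under S2101 it was -0.43, -0.94 and -0.32. The medians over all genes tested lay between -0.01 and 0.05 throughout. MHCC97H thus held the lowest median under TSA, and A549 the lowest under GSK126 and S2101. Single members could differ, such as WEE1, whose ratio under TSA was lowest in A549 (-1.92).

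At least 2-fold lower than untreated under TSA were 44 of the 47 genes for MHCC97H, 29 for A549 and 28 for HCT116, against 14.5, 15.4 and 5.04% of all genes. Under GSK126 the counts were 0, 45 and 7, against 0.219, 5.04 and 1.77% of all genes. In A549 with GSK126 the exceptions were CDC25B and BUB3. Under S2101, 0, 19 and 0 members were at least 2-fold lower, against 0.343, 0.65 and 0.26% of all genes. In all 3 lines, 21 members passed that fold under TSA, against 2.22% of all genes. Under GSK126 0 members did, against 0.0354% of all genes, and under S2101 0, against 0%.

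Within lines, single members stood out. In MHCC97H under TSA, CCNA2 had the lowest ratio (-4.06), from 75 reads against 1406 in untreated cells, followed by PLK1 (-2.97), while NEK2 and CDC25C had the highest (both -0.88). In A549 under GSK126, CDC20 was lowest (-2.62), at 27.9 CPM against 177 CPM untreated, followed by KIF20A (-2.41), at 16.4 CPM against 91.3 CPM. In A549 under TSA, CDC20 had a ratio of -0.27, higher than every member but NEK2, and KIF20A one of -0.80. KIF20A and CDC20 also had the lowest ratios in A549 under S2101 (-1.44 and -1.40). In HCT116, SPC24 (-1.40) and ESPL1 (-1.33) were lowest under GSK126, and ESPL1 (-0.82) was lowest under S2101.

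**Figure D4:**
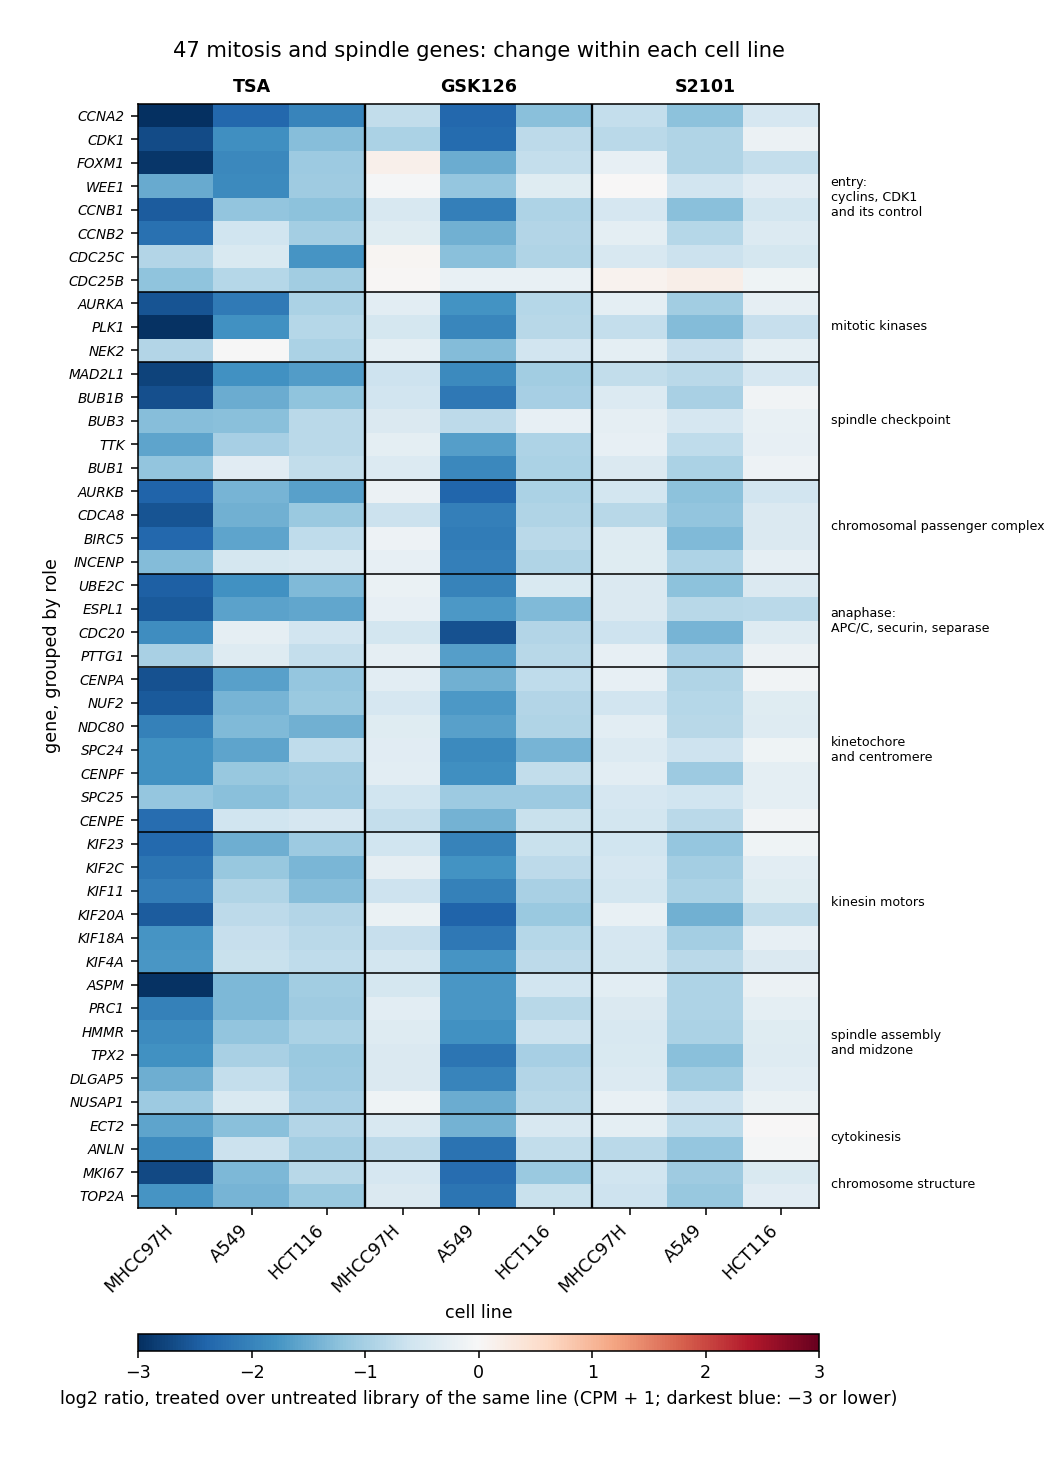
Heat map of the log2 ratio of treated over untreated library of the same line (colour; CPM with a pseudocount of 1; values under -3, such as -4.06 for CCNA2, are drawn at -3) for the 47 genes (vertical axis, by role) in 3 lines under TSA, GSK126 and S2101. The TSA columns hold no positive ratio, the GSK126 column of A549 is darker than those of the other lines, and CDC25B is near white under GSK126 and S2101.

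The compounds were compared with one another at the doses used, which differed (1, 50 and 100 µM). Each comparison with untreated cells uses the same 3 untreated libraries. Against GSK126, TSA gave lower levels of 3 members and higher levels of 0, while 14.2% of all genes were called lower (edgeR). The 3 were CDC25B (-0.91 ± 0.14, adjusted p = 0.00348), WEE1 (-1.01 ± 0.24, adjusted p = 0.0156) and BUB3 (-0.63 ± 0.15, adjusted p = 0.0131). BUB3 had 56.1, 93.02 and 146 CPM under TSA, against 101, 130.5 and 216 CPM under GSK126. The median log2 difference of the 47 genes was -0.45, and the order of the compounds was not the same in every line. In MHCC97H all 47 genes were lower under TSA than under GSK126 and in HCT116 34 were, but in A549 8 were and 39 were not, against 47.9, 47.7 and 48.7% of all genes in MHCC97H, HCT116 and A549. The median difference was 0.14 without the MHCC97H libraries, -0.93 without A549 and -0.78 without the A549 library treated with GSK126. CCNA2 had the largest fitted difference and did not pass (-1.29 ± 0.54, adjusted p = 0.0968), and CDC20 was at the other end (0.48 ± 0.55, adjusted p = 0.535). The number of members called was 5 without the A549 library treated with GSK126 (1225 of 16889 genes), 0 without MHCC97H (551 of 16347 genes) and 0 without A549 (0 of 16202 genes).

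Against S2101, TSA gave lower levels of 11 members and higher levels of 0, with 13.1% of all genes called lower (edgeR). The 11 were CCNA2 (-1.82 ± 0.53), CENPA (-1.39 ± 0.40), MAD2L1 (-1.36 ± 0.35), AURKA (-1.27 ± 0.39), CDK1 (-1.27 ± 0.36), WEE1 (-1.23 ± 0.24), CDC25B (-1.09 ± 0.14), NDC80 (-1.09 ± 0.32), ECT2 (-0.88 ± 0.24), BUB3 (-0.79 ± 0.15) and SPC25 (-0.74 ± 0.17). CDC25B had the lowest adjusted p, 0.00309, at 144, 181 and 129.9 CPM under TSA against 358, 372 and 247 CPM under S2101. The median log2 difference was -0.75, with all 47 genes lower under TSA in MHCC97H and in HCT116 and 30 lower in A549, against 47.2, 48.2 and 49% of all genes. The median difference was -0.46 without MHCC97H and -1.05 without A549. The number called was 3 without the A549 library treated with S2101 (1048 of 16875 genes), 4 without HCT116 (2637 of 16248 genes), 0 without MHCC97H (0 of 16347 genes) and 0 without A549 (3 of 16202 genes).

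Further mitosis genes were listed by function outside the 47, with earlier results of these data known. Many were lower under TSA as well. By edgeR, which gave the counts below unless stated, 17.2% of all genes tested were called lower under TSA and 17.4% higher. Of 35 further kinetochore and centromere genes, 22 fell and 0 rose, including HJURP, the CENP-A chaperone (-2.34 ± 0.53), PMF1 of the MIS12 complex (-2.25 ± 0.40) and CENPK of the inner kinetochore (-1.76 ± 0.36). Of 19 condensin and cohesion genes, 14 fell and 0 rose, among them the cohesin subunit STAG2 (-1.81 ± 0.34), CDCA5, the cohesin protector sororin (-1.78 ± 0.39), and the condensin subunit NCAPH (-1.58 ± 0.32). Of 29 further spindle, motor and cytokinesis genes, 16 fell and 0 rose, with the phosphatase CDC25A (-1.99 ± 0.56), DEPDC1 (-1.96 ± 0.38) and the spindle motor KIF15 (-1.94 ± 0.46) first.

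APC/C genes split: 9 of 18 fell and 1 rose, beside 17.2 and 17.4% of all genes. FBXO5, the interphase inhibitor EMI1 of APC/C, fell (-2.40 ± 0.47), and the subunits ANAPC1 (-1.07 ± 0.15) and ANAPC16 (-0.99 ± 0.15) fell as well. The gene that rose was MAD2L2 (0.94 ± 0.23), an inhibitor of APC/C activators, named after its values were seen. Centriole duplication genes fell in 5 of 9 cases, among them the kinase PLK4 (-1.83 ± 0.44), the cartwheel protein SASS6 (-1.68 ± 0.30) and CEP135 (-1.04 ± 0.17). Of the 13 genes of MuvB, B-MYB and DREAM, 6 fell and 1 rose: LIN9, a MuvB subunit, changed by -1.69 ± 0.34, TFDP1, the partner of E2F factors, by -1.58 ± 0.20, and E2F5 by -1.39 ± 0.34. LIN37, a MuvB subunit, rose (1.03 ± 0.27) and was likewise named after its values were seen. None of these 6 lists had a member called under GSK126 or S2101 by edgeR over 12 libraries, where 0% of all genes were called. The lists hold 35, 18, 19, 29, 9 and 13 genes (kinetochore, APC/C, condensin and cohesion, spindle, centriole and MuvB). At an unadjusted p under 0.05, 5 to 23 genes of a list were lower under GSK126, against 8.91% of all genes. Under S2101 0 to 6 were, against 2.43%. In the same order of lists, DESeq2 called 23, 10, 14, 18, 6 and 6 genes lower under TSA, against 18.6% of all genes. It called 1, 3, 0, 0, 0 and 1 higher under TSA, against 3590 of 16929 genes. Under GSK126 DESeq2 called 13, 4, 9, 6, 3 and 4 genes lower, against 3.77% of all genes. It called 0 lower under S2101, against 0.0177%. Their median log2 changes ran between -1.13 and -0.57 under TSA, between -1.01 and -0.25 under GSK126 and between -0.52 and -0.18 under S2101.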

How the data were processed

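Trizol-extracted RNA was poly(A)-selected and prepared with NEBNext Ultra reagents, per the labels' protocols. The files hold deposited read counts per gene and the authors' RPKM values, 1 table per library. The submitters' processing notes name GRCh38 (hg38) as build. Aligner, counter and strandedness: not given in the sources used here. Reads of overlapping, antisense or near-identical genes can therefore not be told apart. Of 25648 genes, 25647 are in all 12 tables, and 11 entries naming no gene were dropped. Totals of 14468304 to 19061367 counts set the counting precision.

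Counts were fitted with edgeR 4.0.16 (R 4.3.3; TMM scaling, filterByExpr, quasi-likelihood F test) as condition plus cell line over all 12 libraries, leaving 16929 genes and 6 residual degrees of freedom. The common biological coefficient of variation was 0.2961. Line is the replicate block and pairs the libraries because the labels give the same line in each condition. Genes were called at a Benjamini-Hochberg adjusted p under 0.05 over all genes tested. Log2 ratios within a line used scaled CPM plus a pseudocount of 1. The model was run on simulated counts in which a changed gene changed by the same fold in every line. That run cannot speak to responses that differ between lines. DESeq2 1.42.0, other scaling, filters, pseudocounts and left-out libraries were tried as alternatives.

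Genes named in the text are a fixed set of well-known members, those with the largest fitted changes, those called between compounds, the extremes within a line and 3 genes of each further list. Other members are named by role. The members, lists and rules were chosen with earlier results of these data known. Promoter sequences are from RefSeq (GRCh38.p14), matched by symbol for 39 of 47 members, and coordinates of all 47 matched the same build.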

Additional observations from a re-analysis of the deposited data

Results flagged for a closer look

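In 3 genes under GSK126 and 3 under S2101, 1 line moved in the opposite direction to the other lines. There was 1 library for each line and condition, so none of these differences was tested. Under GSK126 the log2 ratio in MHCC97H was 0.0346 for CDC25B, 0.0509 for CDC25C and 0.142 for FOXM1, while A549 and HCT116 were at -0.217 and -0.226, at -1.25 and -0.891, and at -1.48 and -0.72 for the same genes. FOXM1 had 261 CPM with GSK126 against 237 CPM untreated in MHCC97H, from 3927 and 3369 reads, and 65.7 CPM against 185 CPM in A549. Under S2101, ECT2 was at 0.0108 in HCT116 and at -0.286 and -0.76 in MHCC97H and A549. CDC25B was at -0.128 in HCT116 and at 0.1 and 0.178 in the others. WEE1 was at 0.00518 in MHCC97H, against -0.577 in A549 and -0.331 in HCT116. CDC25B took part under both compounds, and its fitted change passed under neither.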

How the results depend on the processing

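The fitted log2 changes of the genes named by rule kept their direction in the settings in which they were checked. They were not checked in fits that left out further libraries besides the 3 TSA libraries. Genes named only as extremes within a line were not checked. The members' median for TSA against GSK126, -0.45 over 12 libraries, turned to 0.14 without MHCC97H, and the medians of the other comparisons kept their sign. Under TSA, 35 members were called lower, against 17.2% of all genes. With no replicate block for line the count was 1 (146 of 16394 genes). In a fit on the 6 libraries compared it was 0, and 0 of 16468 genes were called lower. Over the left-out lines and libraries it ran between 0 and 39 (13 without MHCC97H, 20 without HCT116), against 0.00617 to 19.57% of all genes. RLE scaling gave 33 (15.9% of all genes), no filter 35 (11.64%), a filter of 10 CPM in 3 libraries 29 (17.4%) and DESeq2 40 (18.6%). Under GSK126, 0 members were called lower over 12 libraries (0% of all genes), 1 in the fit on 6 libraries (130 of 15794 genes) and 4 by DESeq2 (3.77%). The count was 40 without the 3 TSA libraries (6.63% of all genes) and 43 without those and MHCC97H (6.16%). Without the TSA libraries and the A549 library treated with GSK126 it was 0 (9 of 16105 genes). It was also 0 without those of TSA and A549 (0 of 15620 genes) or TSA and HCT116 (0 of 15447 genes). The settings without TSA were chosen after the data were seen. Under S2101 the count was 0 in every setting run, where 0 to 3 of all genes were called lower. For TSA against GSK126, 3 members were called lower (14.2% of all genes) and 7 by DESeq2 (16.96%). The count was 0 with no replicate block (6 of 16394 genes) and 0 in the fit on 6 libraries (63 of 16461 genes). It ran between 0 and 5 over the left-out lines and libraries, against 0 to 17.47% of all genes. For TSA against S2101, 11 were called (13.1% of all genes) and 17 by DESeq2 (15.35%). The count was 0 with no replicate block (0 of 16394 genes) and 0 on 6 libraries (0 of 16524 genes). It ran between 0 and 16 over the left-out lines and libraries, against 0 to 16.23% of all genes. The causes were not tested. The within-line medians of the 47 genes ran between -2.11 and -0.33 with a pseudocount of 0.1 CPM, between -1.93 and -0.31 with one of 5 CPM and between -1.82 and -0.28 when scaled by library totals. Each condition has 1 library per line, so the p-values rest on how unevenly the lines responded, with 1 spread estimate for all conditions fitted. The lowest member count in a library was 28 reads.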
